A study of Mus musculus with 89 samples.

Results

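The simple epithelial keratin genes Krt7, Krt8, Krt18, Krt19 and Krt20 were followed through clumps and single cells of the mouse jejunum. The members were taken by name, and all 5 were found among the 27538 genes of the clump table and the 23379 genes of the single cell table. Clumps are groups of attached cells left by a gentle EDTA dissociation, with Hoechst gates for pairs of cells (labelled 4n) and for larger clumps (labelled h4n). All animals were untreated male C57BL/6 mice of 3 months on regular chow, except that 3 single cell plates of mouse 2 were labelled 4 months and its other 13 plates 3 months. One animal cannot have both ages, so mouse 2 of the single cells may stand for more than 1 animal. Clumps came from mice 1 to 5 (27 plates of pairs and 14 plates of larger clumps), and 4 plates labelled h2n came from mouse 6. Single cells came from 4 mice on 44 plates, sorted as CD45-negative and Epcam-positive. CD24 was added to this gate to enrich enteroendocrine cells, and tuft cells were enriched on Epcam and CD24 alone, with no exclusion of CD45. The labels do not say whether a number shared by clumps and cells is the same mouse, so the tables were not tied together by it.

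Keratins are the intermediate filaments of epithelia, and each filament is built from a type I and a type II protein in equal parts. Krt7 and Krt8 are type II, and Krt18, Krt19 and Krt20 are type I. Krt8 is the main type II keratin of the gut lining. Krt18 and Krt19 are widespread type I partners of simple epithelia, Krt20 is known as a keratin of differentiated intestinal cells, and Krt7 is typical of ducts and glands. Levels are in CPM, the unique molecular identifiers (UMIs) of a gene in a sum of wells, scaled to a total of 1000000 UMIs. The library reads the 3′ end, so 1 UMI stands for 1 captured molecule and levels were not divided by transcript length.

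The genes lie in the keratin clusters of 2 chromosomes (GRCm38, GENCODE annotation). The type II genes Krt7 (chr15:101411043-101430313, plus strand) and Krt8 (chr15:101996698-102004482, minus strand) lie on chromosome 15. The type I gene Krt18 (chr15:102028180-102032027, plus strand) lies there too, 23.7 kb from Krt8, while Krt20 (chr11:99428403-99438150, minus strand) and Krt19 (chr11:100140810-100148665, minus strand) lie on chromosome 11. The 100 bases before the start site of Krt8, the member shared by the epithelial classes, of Krt18, the leading keratin of tuft-like cells, and of Krt20, the member that rose from crypt to mid-villus and on to the tip in each mouse, are shown from RefSeq (GRCm38.p6), read on the gene's strand, with the letters TATAAA in capitals. They cover chr15:102004343-102004442 for Krt8, chr15:102028116-102028215 for Krt18 and chr11:99438154-99438253 for Krt20.
Krt8: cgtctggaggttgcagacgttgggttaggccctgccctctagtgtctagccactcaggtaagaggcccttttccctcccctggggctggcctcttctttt
Krt18: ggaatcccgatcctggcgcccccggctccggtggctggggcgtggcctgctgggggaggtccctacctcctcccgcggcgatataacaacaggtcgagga
Krt20: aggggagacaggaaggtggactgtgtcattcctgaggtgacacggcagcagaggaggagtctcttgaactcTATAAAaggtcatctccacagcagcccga
TATAAA, searched on both strands, began 29 bases before the Krt20 start and was absent from the Krt8, Krt18 and Krt7 windows. It was present in 5.56% of the 32851 windows of the same length. GC content was 54.0% for Krt20, 59.0% for Krt8 and 70.0% for Krt18, against a median of 55.0% over all windows.

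Landmark genes of enterocytes, the absorptive cells, placed each clump in 1 of 3 zones, which were crypt, mid-villus and tip. Krt20 is a tip landmark of the study and was left out of this step. Of 5877 clumps placed both with and without it, 5822 took the same zone. The sums per mouse and zone held 75096 to 19012983 UMIs. No other keratin was a landmark.

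Along the crypt-villus axis of the clumps the type I keratins exchanged places. Krt19 was high in crypts and fell by 2.80 on the log2 scale (SE 0.47, 6.96-fold) at the tip, while Krt20 rose by 3.25 (SE 0.46, 9.52-fold). Krt7 was also a crypt keratin, Krt8 was high in every zone and highest at the tip, and Krt18 was lowest in the mid-villus. Between tip and crypt, 4 of the 5 members passed the threshold, Krt8 and Krt20 higher and Krt7 and Krt19 lower, where 54.2% of all 6807 genes tested passed (20.6% higher and 33.6% lower). The median log2 difference over all genes was -0.28, which is the background for the members' values.

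The Krt20 level in crypt clumps of mice 1 to 5 was 633, 658, 1008, 131 and 310 CPM. In mid-villus clumps it was 1642, 2102, 2801, 1005 and 964, and at the tip 3737, 5440.4, 7065, 3692 and 2250.5. In each mouse Krt20 climbed from crypt to mid-villus to tip, and no tip value overlapped a crypt value. The log2 difference was 1.64 (SE 0.43, edgeR adjusted p = 0.00457) from crypt to mid-villus, 1.61 (SE 0.43, adjusted p = 0.0172) from mid-villus to tip, and 3.25 (adjusted p = 7.89e-06) over the whole axis. Sums of pairs alone were thin in mice 4 and 5, with 5016 and 8797 UMIs at the tip and 13564 in the mid-villus of mouse 5. The step to the mid-villus did not pass in pairs alone (1.31, adjusted p = 0.164). The step to the tip did not pass in pairs alone (1.55, adjusted p = 0.147), with library totals for scaling (1.38, adjusted p = 0.0538), with no filter on low counts (1.47, adjusted p = 0.0975), without mouse 1 (1.77, adjusted p = 0.0570) or without mouse 2 (1.55, adjusted p = 0.0769).

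Krt19 ran the other way. Its level in crypt clumps of mice 1 to 5 was 1704, 2112, 1625, 1706 and 906 CPM. In mid-villus clumps it was 186, 304, 257, 597 and 157, and at the tip 149.7, 121, 231, 576 and 26.6. Every crypt value lay above every villus value, and mouse 4 kept the highest Krt19 level in the mid-villus and at the tip. The fall from crypt to mid-villus was 2.45 on the log2 scale (SE 0.45, adjusted p = 1.96e-04), and that from crypt to tip had an adjusted p of 4.91e-05. Between tip and mid-villus the log2 difference was -0.35 (SE 0.45, adjusted p = 0.652), although the tip was lower in 5 of 5 mice.

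Krt8, the common type II partner, had crypt levels of 2655, 2099, 2514, 1802 and 1183 CPM in mice 1 to 5. Mid-villus levels were 1810.4, 1485, 2059, 1413 and 1144, and tip levels were 3528, 3118, 4155, 3469 and 2237. The tip was highest in each of the 5 mice and the mid-villus lowest, with no overlap between tip and mid-villus. The tip exceeded the mid-villus by 1.25 on the log2 scale (SE 0.27, adjusted p = 0.00419) and the crypt by 0.87 (SE 0.27, adjusted p = 0.00916). The difference from the mid-villus did not pass in pairs alone (1.16, adjusted p = 0.215) or with no filter on low counts (1.11, adjusted p = 0.120). That from the crypt did not pass in pairs alone (0.71, adjusted p = 0.340), with no filter (0.88, adjusted p = 0.0966), with library totals (0.66, adjusted p = 0.0978) or without mouse 2 (0.82, adjusted p = 0.0503). From crypt to mid-villus the difference was -0.38 (SE 0.27, adjusted p = 0.272), and it passed with DESeq2 (-0.52, adjusted p = 0.00205).

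Krt18 showed a dip. Its level was 225, 178, 178, 268 and 70.1 CPM in crypt clumps of mice 1 to 5, 87.2, 43.3, 117, 84.7 and 23.2 in mid-villus clumps, and 229.9, 100.2, 196, 131 and 39.9 at the tip. The mid-villus was lowest in every mouse, with overlap between mice, mouse 5 being low throughout. It lay below the crypt by a log2 difference of -1.39 (SE 0.35, adjusted p = 0.00320), and the tip lay above it by 1.20 (SE 0.37, adjusted p = 0.0338). Tip and crypt differed by -0.19 (SE 0.35, adjusted p = 0.678). The fall from crypt to mid-villus did not pass in pairs alone (-1.15, adjusted p = 0.0567). The rise from mid-villus to tip did not pass in pairs alone (adjusted p = 0.103), with library totals (adjusted p = 0.133), with no filter (adjusted p = 0.194), in clumps of over 1000 UMIs (adjusted p = 0.0725), or without mouse 1 (adjusted p = 0.117), mouse 2 (adjusted p = 0.115) or mouse 3 (adjusted p = 0.0781).

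In clumps, fewer cells of a type and less RNA per cell cannot be told apart, and Krt18 is the member with the highest level in tuft cells (class values are given further on). Summed tuft markers made up 162 to 329 CPM of the crypt sums, 75.8 to 248 of the mid-villus sums and 65.9 to 249 of the tip sums. Summed goblet markers ran from 1053 to 2231 in crypts, 839 to 4339.7 in the mid-villus and 1057 to 7491 at the tip. A clump was taken to carry a secretory type when that marker list held at least 5 UMIs and at least 0.2% of its UMIs. Clumps below these limits, which can still hold some secretory RNA, were also summed alone, a setting chosen after seeing the data. The Krt18 level was then 141, 135, 132, 228 and 54.3 CPM in crypts, 26.5, 21.4, 31.5, 49.2 and 0 in the mid-villus, and 154, 91.9, 117, 95.9 and 29.4 at the tip. The mid-villus difference from crypt was then -2.29 on the log2 scale (adjusted p = 7.47e-05), and the tip exceeded the mid-villus by 2.17 (adjusted p = 0.00143). These mid-villus sums held 0 to 64 Krt18 UMIs, and the part of secretory cells in the Krt18 values of the zones was not tested.

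Krt7 was the rarest member. Its level was 76.2, 87.6, 71.1, 70.4 and 18.9 CPM in crypt clumps of mice 1 to 5, and at most 14.7 in the mid-villus and 21.4 at the tip. Crypt and mid-villus values did not overlap, and mouse 5 stood apart with a low crypt value. The log2 difference was -3.04 (SE 0.47, adjusted p = 3.36e-05) in the mid-villus and -2.77 (SE 0.58, adjusted p = 5.08e-04) at the tip. Villus sums of 2 mice at the tip and 1 in the mid-villus held no Krt7 UMI, so these fitted values rest on few counts.

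Between mid-villus and crypt, 4 of 5 members passed (Krt20 higher, and Krt7, Krt18 and Krt19 lower), against 40.7% of all genes (14.7% higher and 26.0% lower). Between tip and mid-villus, 3 of 5 passed, all of them higher (Krt8, Krt18 and Krt20), against 14.7% of all genes (6.52% higher and 8.15% lower).

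**Figure D1:**
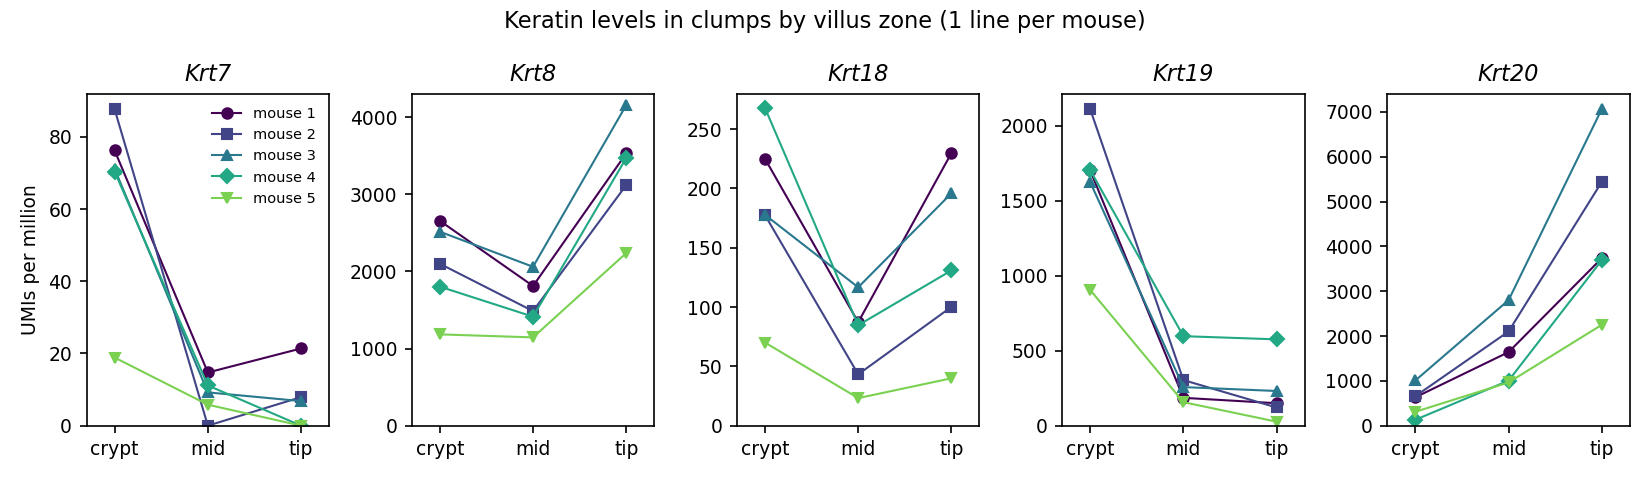
Level of each keratin in clumps (y axis, CPM, a separate scale from 0 for each gene) by zone (x axis), with 1 line and marker per mouse. Krt19 drops after the crypt in all 5 mice, Krt20 climbs to 2250.5 to 7065 at the tip, and Krt8 and Krt18 are lowest in the mid-villus.

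Single enterocyte-like cells gave the same axis without neighbours. These cells were called by a limit of 10 summed marker UMIs, with no keratin among the markers, and 2316 were found, 279 of them within 10 to 19 marker UMIs. Zones were set by the same landmarks without Krt20. Mouse 1 had too few crypt cells for a sum, which left 3 mice for the crypt and 4 for the mid-villus and the tip. Compared with crypt cells, tip cells held more Krt20, Krt8 and Krt18 and less Krt19.

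Krt20 had levels of 454, 360.1 and 598 CPM in crypt enterocytes of mice 2 to 4. Levels in the mid-villus were 1103, 777, 679 and 1012 in mice 1 to 4, and those at the tip 1304, 2006, 1498 and 2274. The 3 ranges did not overlap. The tip exceeded the crypt by 2.69 on the log2 scale (SE 0.29, 6.47-fold, adjusted p = 7.68e-07) and the mid-villus by 1.46 (SE 0.24, adjusted p = 4.61e-04).

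Krt19 fell from 794, 758 and 647 CPM in crypt enterocytes of mice 2 to 4 to 4.28, 59.1, 45.6 and 31.6 at the tip of mice 1 to 4. Mid-villus values were 11.1, 124, 165 and 97.5, and mouse 1 was the lowest in both villus zones. Crypt and tip did not overlap, with a log2 difference of -3.83 (SE 0.58, 14.2-fold, adjusted p = 2.99e-05). Tip and mid-villus differed by -1.17 (SE 0.55, adjusted p = 0.110), with the tip lower in 4 of 4 mice. With the mouse as a replicate block this difference passed (-0.97, adjusted p = 4.64e-04), and it also passed with library totals (-1.64, adjusted p = 0.0441), with no filter (-1.34, adjusted p = 7.02e-04) and without mouse 1 (-1.02, adjusted p = 0.0316).

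Krt8 had levels of 821, 856 and 972 CPM in crypt enterocytes of mice 2 to 4. Levels were 579, 579, 541 and 787 in the mid-villus and 659, 1361, 961 and 1953 at the tip of mice 1 to 4. Mid-villus cells were again lowest within each mouse, and the tip value of mouse 1 lay below the crypt values of the other mice. The tip exceeded the mid-villus by 1.46 (SE 0.23, adjusted p = 2.76e-04) and the crypt by 1.19 (SE 0.25, adjusted p = 6.26e-04). The latter was 0.45 (adjusted p = 0.261) with library totals alone.

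Krt18 was sparse in single enterocytes, at 24.5 to 48.6 CPM in the crypt, 14.6 to 47.3 in the mid-villus and 39.1 to 137 at the tip. The tip exceeded the crypt by 1.94 (SE 0.50, adjusted p = 0.00342) and the mid-villus by 1.81 (SE 0.42, adjusted p = 0.00422, higher in 3 of 4 mice), and the groups overlapped. With library totals alone the first was 1.18 (adjusted p = 0.0736). Mean Krt18 levels were 33.3 in crypt and 30.9 in mid-villus enterocytes, a difference that was not tested. Krt7 did not pass the filter on low counts, with 1 to 8 UMIs in each sum that held any.

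In these cells 4 of 4 members tested passed between tip and crypt, where 54.2% of 4174 genes passed (26.4% higher and 27.8% lower). Between tip and mid-villus 3 of 4 passed, all higher, where 30.7% of genes passed (15.2% higher and 15.5% lower). The trimmed mean scaling (TMM) of edgeR and library totals differed in this comparison. The median log2 difference of all genes was 0.07 with TMM and -0.74 with library totals between tip and crypt, and -0.04 and -0.63 between tip and mid-villus. The share of called genes that were higher was 48.7% with TMM and 17.9% with library totals between tip and crypt, and 49.5% and 12.1% between tip and mid-villus.

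**Figure D2:**
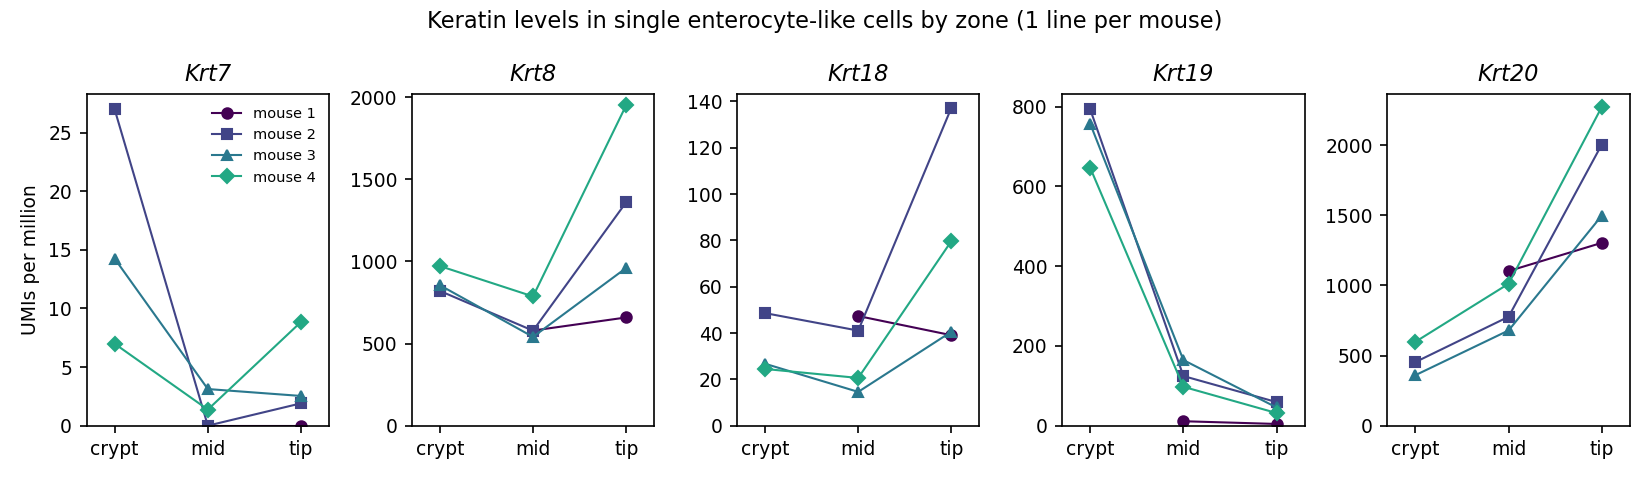
Level of each keratin in single enterocyte-like cells (y axis, CPM, from 0, a separate scale for each gene) by zone (x axis), with 1 line and marker per mouse and no crypt point for mouse 1. Krt19 falls from 647 to 794 in the crypt to 4.28 to 59.1 at the tip, and Krt20 rises.

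Across the single cell classes the keratin levels differed. Tuft-like cells (189), the chemosensory cells of the epithelium, held Krt8 and Krt18 and almost none of the others. Goblet-like cells (210), the mucus makers, and enteroendocrine-like cells (215), the hormone makers, each held all 5 members and were not tested against each other. Enteroendocrine-like cells held more Krt7 than the other classes in mice 2 and 3. Enterocyte-like cells held Krt8 and Krt20, with Krt19 at the crypt end. Immune-like cells (1575), with Ptprc, the gene of CD45, at 628 to 746 CPM, served as the class that should lack keratins. The class sums held 12043 to 2234513 UMIs. Defining markers matched the names, with Dclk1 at 863 to 1362 CPM in tuft-like cells and at most 18.1 in the other 4 classes, Muc2 at 3779 to 12258 in goblet-like cells and at most 71.1 in the others, and Chga at 610.3 to 5008 in enteroendocrine-like cells and at most 73.5 in the others. Cells were unevenly spread over mice, with 19, 159, 6 and 5 tuft-like cells in mice 1 to 4 and 9, 189 and 13 enteroendocrine-like cells in mice 1 to 3.

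Krt18 in tuft-like cells of mice 1 to 4 reached 9467, 8055, 5610 and 5397 CPM. In enterocyte-like cells of the same mice it was 40.3, 77.0, 23.5 and 47.1. The groups were far apart in every mouse. The log2 difference was 5.48 (SE 0.85, 44.7-fold, edgeR adjusted p = 2.25e-06), and 7.29 with library totals alone (adjusted p = 1.90e-07). Goblet-like cells lay between, at 830.1, 933, 955 and 827, as did enteroendocrine-like cells of mice 1 to 3 at 215, 777 and 462. The tuft-like level exceeded the goblet-like level by 2.11 (SE 0.73, adjusted p = 0.0393) and the enteroendocrine-like level by 3.49 (SE 0.88, adjusted p = 0.00499). Without mouse 4 the difference from goblet-like cells was 2.29 (adjusted p = 0.0529).

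Goblet-like cells exceeded enterocyte-like cells in Krt18 by 3.37 (SE 0.77, 10.3-fold, adjusted p = 0.00101), with no overlap. Enteroendocrine-like cells exceeded them by 1.99 (SE 0.78, adjusted p = 0.0443). That difference did not pass with the DESeq2 test (1.75, adjusted p = 0.102) or its size factors (1.78, adjusted p = 0.0681), with clusters in place of marker limits (1.61, adjusted p = 0.105), or without mouse 2 (1.22, adjusted p = 0.338), mouse 3 (1.98, adjusted p = 0.109) or mouse 4 (1.90, adjusted p = 0.0739). The order of Krt18 levels was thus tuft-like, goblet-like, enteroendocrine-like and enterocyte-like. The ranges of goblet-like and enteroendocrine-like cells did not overlap, while their difference was not among the tests.

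Krt8 accompanied Krt18 in tuft-like cells, at 5509, 4746, 4192 and 3321 CPM in mice 1 to 4. Goblet-like cells held 1947, 2041, 1811 and 1693, enteroendocrine-like cells of mice 1 to 3 held 1292, 1004 and 959, and enterocyte-like cells held 648, 895, 719 and 1327. On the CPM scale, tuft-like cells were highest and goblet-like cells next, in every mouse. After TMM scaling, however, Krt8 did not differ past the threshold between tuft-like and goblet-like cells (0.32, SE 0.54, adjusted p = 0.761). The same held between goblet-like and enterocyte-like cells (0.29, SE 0.54, adjusted p = 0.745). Tuft-like and enterocyte-like cells did not differ past it either (0.61, SE 0.54, adjusted p = 0.452), and with library totals alone they did (2.36, adjusted p = 3.26e-04). The call on Krt8 therefore depended on the scaling. The enteroendocrine-like difference from enterocyte-like cells turned sign, from -1.18 (SE 0.61, adjusted p = 0.134) to 0.38 (adjusted p = 0.533). With the mouse as a replicate block the former was -1.32 (adjusted p = 0.0416), and with clusters in place of marker limits -1.38 (adjusted p = 0.0310). Against enteroendocrine-like cells tuft-like cells had a Krt8 difference of 1.79 (SE 0.63, adjusted p = 0.0577), which passed with DESeq2 (2.13, adjusted p = 0.00129) or its size factors (2.12, adjusted p = 0.0170), with clusters (2.51, adjusted p = 0.00110), with a limit of 20 marker UMIs (2.25, adjusted p = 0.0139), without the immune-like sum of mouse 1 (1.83, adjusted p = 0.0240), with library totals (1.97, adjusted p = 0.0135), with the mouse as a replicate block (1.85, adjusted p = 0.00919) and without mouse 4 (2.22, adjusted p = 0.0186).

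The TMM factors were 0.231 to 0.629 in enterocyte-like sums and 1.22 to 2.23 in tuft-like sums. Over all genes the median log2 difference of tuft-like from enterocyte-like cells was -0.35 with TMM, -0.17 with the size factors of DESeq2 and 1.23 with library totals. Among called genes 35.3% were higher with TMM and 82.9% with library totals. For goblet-like cells the medians were -0.21 and 0.48 with 35.0% and 66.7% of calls higher, for enteroendocrine-like cells 0.03 and 1.38 with 44.5% and 86.6%, and for immune-like cells 0.25 and 1.58 with 56.0% and 79.3%. Differences between members within a class do not depend on this choice.

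Krt20 was almost absent from tuft-like cells, at 93.4, 42.8, 0 and 0 CPM in mice 1 to 4, against 1275, 1182, 754 and 1499 in enterocyte-like cells. The groups did not overlap, and the log2 difference was -6.34 (SE 0.83, adjusted p = 1.08e-07). Goblet-like cells held 1976, 1415, 1097 and 1063, overlapping enterocyte-like cells, with a difference of -0.62 (SE 0.60, adjusted p = 0.519) that was 0.25 (adjusted p = 0.776) with library totals. Enteroendocrine-like cells held 1077, 731 and 355 in mice 1 to 3, lower than enterocyte-like cells in 3 of 3 mice. Their log2 difference of -2.24 (SE 0.71, adjusted p = 0.0133) was -0.59 (adjusted p = 0.419) with library totals. Leaving out mouse 2 gave -2.49 (adjusted p = 0.108) and leaving out mouse 3 gave -2.06 (adjusted p = 0.0749). Against goblet-like cells the tuft-like difference in Krt20 was -5.73 (SE 0.81, adjusted p = 1.79e-06) and against enteroendocrine-like cells -4.11 (SE 0.81, adjusted p = 3.89e-04), the latter -3.69 (adjusted p = 0.0700) without mouse 2.

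Among the classes Krt19 was highest in goblet-like cells, at 1097, 993, 945 and 1023 CPM, a narrow range over the 4 mice. Enterocyte-like cells held 5.82, 187, 314 and 156, and tuft-like cells 0, 28.6, 0 and 166 from at most 10 UMIs per sum. The enterocyte-like sums pool the zones, and crypt enterocytes alone held 647 to 794, nearer to the goblet-like level. Goblet-like cells exceeded enterocyte-like cells by 2.09 (SE 0.68, adjusted p = 0.0230) with no overlap. This did not pass with no filter (1.77, adjusted p = 0.0649) or without mouse 2 (2.03, adjusted p = 0.126) or mouse 4 (2.26, adjusted p = 0.0694). Tuft-like cells differed from enterocyte-like cells by -3.86 (SE 0.94, adjusted p = 0.00127), with overlap, and this did not pass with library totals (-2.44, adjusted p = 0.0666) or without mouse 2 (-3.65, adjusted p = 0.0677). Their difference from goblet-like cells was -5.95 (SE 0.96, adjusted p = 1.45e-05), with no overlap. Enteroendocrine-like cells of mice 1 to 3 spread from 35.9 through 925 to 675, and their difference from enterocyte-like cells was 0.70 (SE 0.71, adjusted p = 0.466). Tuft-like cells differed from them by -4.56 (SE 0.97, adjusted p = 9.57e-04), or -3.36 (adjusted p = 0.210) without mouse 2.

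Krt7 was found in enteroendocrine-like cells at 71.8, 1153 and 462 CPM in mice 1 to 3, from 2, 481 and 13 UMIs. Goblet-like cells held 158, 126, 162 and 236, above enteroendocrine-like cells in mouse 1 and below them in mice 2 and 3, a pair that was not tested. Enterocyte-like cells held at most 6.27. Enteroendocrine-like and enterocyte-like sums did not overlap, with a log2 difference of 6.12 (SE 0.75, 69.5-fold, adjusted p = 4.69e-08). The goblet-like difference was 4.66 (SE 0.72, 25.4-fold, adjusted p = 3.99e-06), also without overlap. In tuft-like cells Krt7 was at most 28.6 and differed from enterocyte-like cells by 1.12 (SE 0.90, adjusted p = 0.394), which was 2.49 (adjusted p = 0.0391) with library totals. Tuft-like cells held less Krt7 than goblet-like cells (-3.55, SE 0.86, adjusted p = 0.00255) and less than enteroendocrine-like cells, at -5.00 (SE 0.87, adjusted p = 7.09e-05), the latter being -4.13 (adjusted p = 0.0865) without mouse 2.

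Among the members, 3 of 5 passed between tuft-like and enterocyte-like cells (Krt18 higher, Krt19 and Krt20 lower), where 30.6% of 4510 genes passed (10.8% higher and 19.8% lower). Between goblet-like and enterocyte-like cells 3 of 5 passed, all higher, where 22.0% of genes passed (7.69% higher and 14.3% lower). Between enteroendocrine-like and enterocyte-like cells 3 of 5 passed (Krt7 and Krt18 higher, Krt20 lower), where 33.7% did (15.0% higher and 18.7% lower). Against goblet-like cells 4 of 5 members passed in tuft-like cells, Krt18 higher and the others lower, where 16.9% of genes did (6.67% higher and 10.3% lower). Against enteroendocrine-like cells it was 4 of 5, again with Krt18 alone higher, where 11.6% did (4.99% higher and 6.61% lower).

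Immune-like cells were taken as the background. Their sums held at most 104 CPM of Krt8 and 85.1 of Krt20, and the 10 cells of mouse 1 held no keratin UMI. Krt8, Krt19 and Krt20 were lower than in enterocyte-like cells (-4.86, -3.41 and -5.89 on the log2 scale, adjusted p = 4.53e-08, 2.04e-04 and 2.05e-08), so that 3 of 5 members passed where 63.4% of genes did (35.5% higher and 27.9% lower). Krt7 and Krt18 did not pass. Krt7 had means of 4.09 and 3.99 CPM in immune-like and enterocyte-like cells and differed by -0.30 (SE 0.81, adjusted p = 0.763). Krt18 stood at 199 in mouse 2 and 0, 13.9 and 3.87 in mice 1, 3 and 4. Mouse 2 also gave 159 of the 189 tuft-like cells, and 189 of the 215 enteroendocrine-like cells. Its immune-like sum held Dclk1 at 18.1, Krt23 at 6.03 and Chga at 73.5, against at most 3.87, 0 and 0 in the other mice. The part of tuft-cell and enteroendocrine-cell RNA in that value was not tested. The Krt18 difference from enterocyte-like cells was -0.84 (SE 0.73, adjusted p = 0.315), -1.45 (adjusted p = 0.0166) with the mouse as a replicate block and -3.94 (adjusted p = 9.15e-04) without mouse 2. It was 0.56 (adjusted p = 0.472) with library totals.

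**Figure D3:**
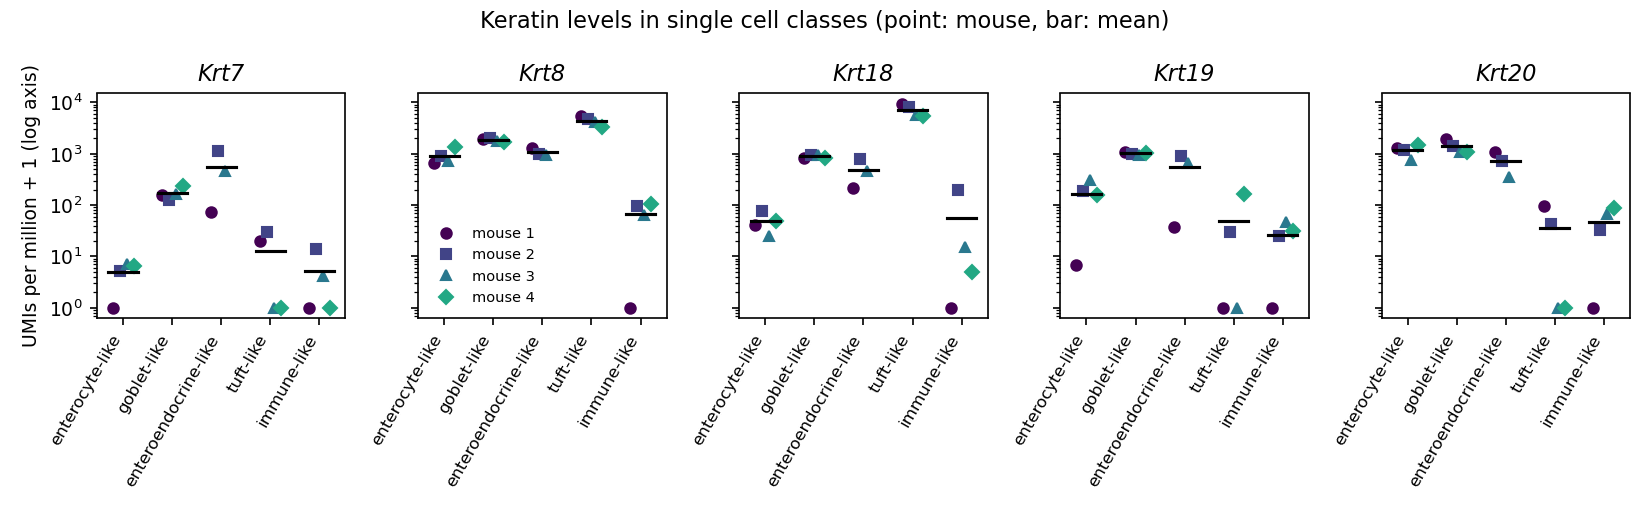
Level of each keratin in the single cell classes (y axis, CPM plus 1, log axis), with 1 point per mouse and a bar at the mean. Krt18 stands highest in tuft-like cells (5397 to 9467), Krt7 in enteroendocrine-like cells of mice 2 and 3, and Krt19 in goblet-like cells, while points at 1 are sums with no UMI.

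**Figure D4:**
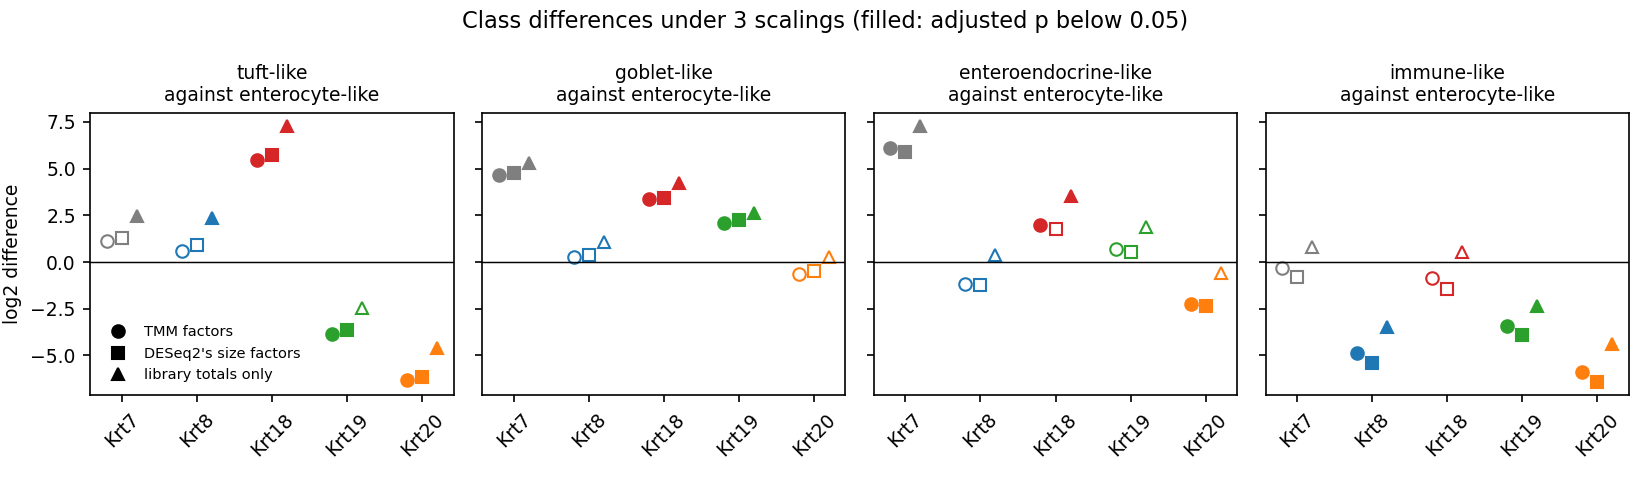
Log2 difference of each keratin from enterocyte-like cells (y axis) in 4 classes under 3 scalings (circle TMM, square DESeq2 size factors, triangle library totals), filled where the adjusted p was below 0.05. The triangles lie above the circles for each keratin and class, and for Krt8 in tuft-like cells the value moves from 0.61 to 2.36.

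Counted cell by cell, 185 of 189 tuft-like cells (97.9%, Wilson 95% interval 94.7 to 99.2) had a Krt18 UMI, with a median of 17.0 per cell. The share was 74.3% in goblet-like, 65.1% in enteroendocrine-like, 11.1% in enterocyte-like and 9.65% in immune-like cells. Median depths were 2252 UMIs in tuft-like, 2044 in goblet-like, 2065 in enteroendocrine-like, 2980.0 in enterocyte-like and 921 in immune-like cells. With each cell thinned to 500 UMIs, which left out 5, 6, 2, 19 and 262 cells of these classes, the shares were 94.6%, 34.8%, 26.3%, 2.48% and 4.57%. No order is read between the enterocyte-like and immune-like shares, because enterocyte-like Krt18 levels were the higher ones in 3 of 4 mice and the immune-like level was high in mouse 2 alone. The intervals cover counting error only.

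A Krt7 UMI was found in 55.3% of enteroendocrine-like and 27.1% of goblet-like cells, against 3.70% of tuft-like, 1.04% of enterocyte-like and 0.825% of immune-like cells. After thinning the values were 31.5%, 7.35%, 1.63%, 0.218% and 0.381%, so that the enterocyte-like share as a whole was no higher than the immune-like one. By zone, Krt7 was 27.0, 14.3 and 6.99 CPM in crypt enterocytes of mice 2 to 4, from 5, 8 and 2 UMIs, and 0 to 3.13 in the mid-villus. For Krt20 the thinned share was 39.5% in enterocyte-like, 48.0% in goblet-like and 25.4% in enteroendocrine-like cells. In tuft-like cells it was 2.72% (interval 1.17 to 6.20), similar to 2.74% in immune-like cells (unthinned 6.88% and 4.83%). Whether these tuft-like UMIs are background was not tested. For Krt19 it was 33.8% in goblet-like, 27.2% in enteroendocrine-like, 6.62% in enterocyte-like, 2.72% in tuft-like and 1.52% in immune-like cells. Krt8 reached 82.6% of tuft-like, 58.8% of goblet-like, 37.6% of enteroendocrine-like and 30.9% of enterocyte-like cells after thinning, against 3.43% of immune-like cells.

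The make-up of the keratin UMIs, which no scaling between samples can move, showed the exchange of Krt19 and Krt20 but not every zone pattern of the levels. Type I keratins made up 52.5% ± 3.24 (SD, n = 5 mice) of the UMIs of the 5 members in crypt clumps, 55.6% ± 5.54 in the mid-villus and 57.8% ± 6.21 at the tip. They made up 61.2% ± 4.55 in enterocyte-like (n = 4), 61.5% ± 2.31 in goblet-like (n = 4), 51.2% ± 1.83 in enteroendocrine-like (n = 3) and 61.6% ± 2.90 in tuft-like cells (n = 4). Over these groups single mice ranged from 48.4% to 67.1%. These shares are given as a description, with no test.

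In clumps the Krt18 share was 4.11% ± 1.56 in crypts, 1.88% ± 0.774 in the mid-villus and 1.67% ± 0.818 at the tip (SD, n = 5), so in these sums the rise of its level at the tip did not appear as a share. Mean Krt18 shares were 3.75%, 1.38% and 1.12% in pairs alone, in the same order. They were 3.02%, 0.708% and 1.14% in clumps below the secretory limits, and 1.56%, 1.88% and 2.31% in single enterocytes, higher at the tip than in the mid-villus. These differences were not tested. The Krt8 share in all clumps was 46.1% ± 3.42, 44.1% ± 5.42 and 42.1% ± 6.21 in the same order, with no peak at the tip, where its level was highest. Within the type I share the member changed. In crypt clumps Krt19 held 36.5% ± 5.52 of the keratin UMIs and Krt20 11.8% ± 5.50, and at the tip Krt19 held 2.64% ± 2.68 and Krt20 53.5% ± 7.14. In tuft-like cells Krt18 held 60.8% ± 2.53 and Krt20 0.238% ± 0.298. Goblet-like cells divided theirs between Krt18 (16.8% ± 2.22), Krt19 (19.1% ± 1.42) and Krt20 (25.7% ± 5.13). Krt8 held between 34.3% and 46.1% on average in each of these groups. In enteroendocrine-like cells the Krt8 share ran from 21.9% to 48.0% over mice, and Krt7 added 14.5% ± 11.3.

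**Figure D5:**
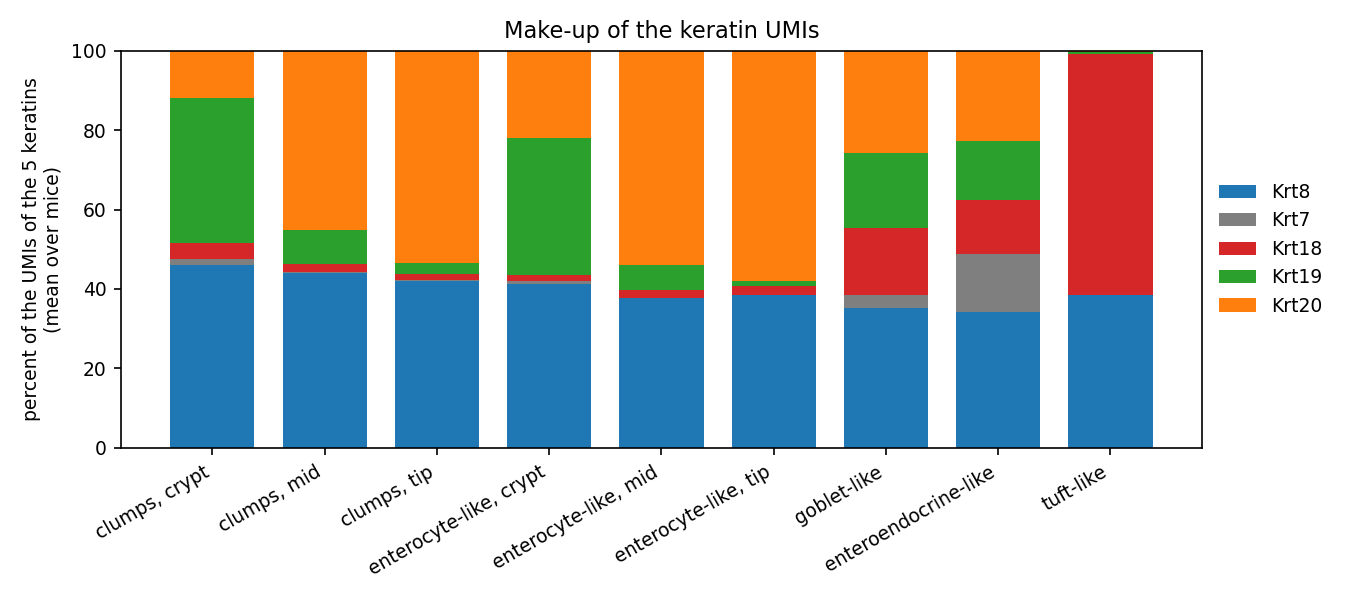
Share of each member in the UMIs of the 5 keratins (y axis, percent, mean over mice) in clumps by zone, single enterocyte-like cells by zone and the secretory classes (x axis), stacked to 100. The mean Krt8 share (blue) runs from 34.3% to 46.1%, while the type I share passes from Krt19 to Krt20 along the axis and to Krt18 (60.8%) in tuft-like cells.

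Crypt clumps were also divided by the secretory type they carried under the same limits, and clumps with none lay below the limits of every list. Clumps with tuft markers (24 clumps, from mice 1 to 4) had Krt18 levels of 4092, 121, 935 and 544 CPM, against 141, 135, 132 and 228 in clumps with none in the same mice. Krt18 was higher in 3 of 4 mice, and the 5 clumps of mouse 2 held a single Krt18 UMI in 8289. The log2 difference was 3.11 (SE 0.53, 8.61-fold, adjusted p = 7.15e-04), where 0.964% of 4979 genes passed (0.823% higher and 0.141% lower), and without mouse 1 it was 1.66 (adjusted p = 0.314). It was the 1 member of 5 that passed. Krt19, with means of 968 and 1716, differed by -1.06 (SE 0.44, adjusted p = 0.355).

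In crypt clumps with goblet markers none of the 5 members passed in the edgeR test, where 0.884% of genes did. Krt18 was higher in 5 of 5 mice (378, 633, 355, 368 and 109 against 141, 135, 132, 228 and 54.3 CPM), with a log2 difference of 1.41 (SE 0.49, unadjusted p = 0.00823 in edgeR's test, adjusted p = 0.617). Krt19 was lower in 5 of 5 mice, with means of 1415 against 1716 CPM and a log2 difference of -0.24 (SE 0.39). In clumps with Paneth markers none of the members passed, where 1.10% of genes did, and Krt18 differed by 1.14 (SE 0.55, adjusted p = 0.983). Clumps with enteroendocrine markers, in 3 mice, held Krt7 at 401, 329.9 and 155 CPM against 71.3, 66.4 and 59.7 in clumps with none of the same mice, from 13, 9 and 31 UMIs. That pair of groups was not among the tests.

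Larger crypt clumps and pairs of cells were compared as a check of clump size. None of the members and none of 7382 genes (0%) passed in edgeR, 221 had an unadjusted p below 0.05, and DESeq2 called 0. With the mouse as a replicate block 35 genes passed, none of them a member. The Krt18 difference was 0.47 (SE 0.37, adjusted p = 1.000), larger clumps being higher in each of 3 mice, and that of Krt20 was -0.60 (SE 0.59, adjusted p = 1.000).

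Other keratins were scarce. The 5 members made up 99.7% of all keratin UMIs in the clumps kept and 98.8% in the single cells kept. Of the others, Krt10, an epidermal type I keratin, led in clumps with 171 UMIs, ahead of Krt23 (70) and Krt12 (55), and in single cells the order was Krt23 (206), Krt12 (57) and Krt222 (36). Krt23, a type I keratin, was found in tuft-like cells at 355, 323, 616 and 415 CPM and in goblet-like cells at 158, 84.3, 78.7 and 78.7. In enterocyte-like cells it reached 0.895 in mouse 1, from 2 UMIs, and had no UMI in the other mice. The tuft-like difference from enterocyte-like cells passed (adjusted p = 1.05e-10), as did the goblet-like one (adjusted p = 3.47e-09), and the fitted folds rest on that near absence. Tuft-like and goblet-like cells differed by 0.99 (SE 0.54, adjusted p = 0.240). Krt12, known from the cornea, had too few counts to be tested. Its tip clumps held 26.7, 29.0, 24.5, 39.3 and 0 CPM, and its crypt clumps at most 2.70 and mid-villus clumps at most 3.21. It was at 11.4 to 19.1 in tip enterocytes and without a UMI in crypt enterocytes.

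Linkers are the proteins that tie keratin filaments to desmosomes and to the cytoskeleton. Of 16 listed linkers, 9 were tested in clumps, and 8 were higher in tip than in crypt clumps and none was lower, where 20.6% of all genes were higher and 33.6% lower, with a median log2 difference of 1.81 against -0.28 over all genes. The largest were Plec, the linker plectin (544 against 72.2 CPM, log2 difference 3.14, SE 0.39, adjusted p = 1.69e-06), Dst, dystonin (2.29, SE 0.38, adjusted p = 4.68e-05), and Dsp, desmoplakin (1.99, SE 0.47, adjusted p = 0.00134). The count was 8 of 9 under each of 3 scalings. In single enterocytes 8 of 10 were higher and none lower, where 26.4% of genes were higher and 27.8% lower, Dsp at 2.91 (SE 0.39) and Plec at 2.81 (SE 0.38), although 3 of 10 passed with library totals alone. In tuft-like against enterocyte-like cells 5 of 10 were lower and none higher, where 19.8% of genes were lower and 10.8% higher, led by Plec (-4.01, SE 0.76), Dst (-3.08, SE 0.70) and Pkp3, a desmosomal plakophilin (-2.89, SE 0.76). With library totals alone Plec was the only linker lower, and Macf1 and Pof1b were higher.

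Keratin partners are proteins that bind, fold or modify keratins. In tip against crypt clumps 3 of 13 tested were higher and 5 lower, shares near those of all genes (20.6% and 33.6%). Higher were Sfn, a 14-3-3 protein (2.93, SE 0.40), Prkcd, a protein kinase C (2.38, SE 0.27, adjusted p = 7.93e-07), and Stub1, a chaperone-linked ubiquitin ligase (0.80, SE 0.29, adjusted p = 0.0233), the last not with library totals or DESeq2 size factors. Sfn was itself a tip landmark, so its value is a description. The lowest were Casp6, a caspase (-2.39, SE 0.44), Ywhag, another 14-3-3 protein (-2.13, SE 0.45), and Hspa8, a chaperone (-1.99, SE 0.30). In tuft-like against enterocyte-like cells Prkcd (-6.59, SE 1.07) and Sfn (-5.34, SE 0.92) were lower and 10 of 12 did not pass, where 19.8% of genes were lower, whereas 6 were higher with library totals alone.

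Of 8 transcription factors linked to keratin or intestinal genes, 3 were higher at the tip in clumps and 2 lower, where 20.6% and 33.6% of all genes were. Klf4 rose the most (792 against 47.4 CPM, 4.25, SE 0.40, adjusted p = 1.33e-07), followed by Jun (2.47, SE 0.45, adjusted p = 1.17e-04) and Hnf4a (0.64, SE 0.25, adjusted p = 0.0362), the last not with library totals or DESeq2 size factors. Cdx1 (-1.47, SE 0.43, adjusted p = 0.00694) and Klf5 (-1.27, SE 0.25, adjusted p = 2.64e-04) were lower. In tuft-like against enterocyte-like cells 6 of these factors were tested, where 10.8% of all genes were higher and 19.8% lower. Cdx1, an intestinal homeobox factor, was higher (2.47, SE 0.51, adjusted p = 1.71e-04), and Jun (-4.34, SE 0.74), Klf4 (-2.30, SE 0.64) and Hnf4a (-1.57, SE 0.52) were lower. Of the lower 3, Jun passed with library totals. Among other intermediate filament genes 2 of 15 were tested in clumps. Lmna, a nuclear lamin, was higher at the tip (1.09, SE 0.29, adjusted p = 0.00382) and Lmnb1 lower (-3.54, SE 1.07, adjusted p = 0.00867). In tuft-like cells Vim, the vimentin gene, passed as higher than in enterocyte-like cells (3.31, SE 0.80, adjusted p = 0.00124), although its 14 UMIs all came from mouse 2 and the other 3 mice held none.

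Genes most like each member were sought by Pearson's r on log2(CPM + 5), with landmarks and class markers left out. The r values describe sums that share mice and libraries and carry no test. Over the 15 sums of mouse and zone, among 2439 genes, Krt19 was most like Rpl35 (r = 0.988), Npm1 (0.981) and Rpl23 (0.980), genes of ribosomes and the nucleolus. Krt20 was most like Apobec1 (0.967), which encodes an RNA-editing enzyme, Ndfip2 (0.966) and Cyp3a13 (0.964). Krt8 was nearest to Ets2 (0.915), S100a11 (0.880) and Rnh1 (0.874), and Krt18 to Map4 (0.876), Mrpl54 (0.872) and Eif5b (0.869). Among the members, Krt8 had r of 0.629 with Krt18, 0.626 with Krt20 and -0.116 with Krt19, and Krt19 and Krt20 had -0.652.

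Over the 19 sums of mouse and class, among 2023 genes, Krt18 was nearest to Tm4sf4 (0.923), Rab25 (0.900) and Npdc1 (0.896). Krt8 was nearest to Ceacam2 (0.954), App (0.951) and Gpa33 (0.950), and had r of 0.826 with Krt18. Krt20 was nearest to Jun (0.944), Smim24 (0.926) and P4hb (0.925), and Krt19 to Txndc5 (0.812), Tagln2 (0.804) and Txn1 (0.803). Krt7 was nearest to 5330417C22Rik (0.948), Rnase4 (0.930) and Serpina1b (0.907), and had its highest r among the members with Krt19 (0.709).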

How the data were processed

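The authors sequenced clumps and single cells by MARS-seq and deposited UMI counts per gene and well, demultiplexed with bcl2fastq 2.15.0.4 per the submitters' notes and aligned to GRCm38 with STAR and zUMIs per the methods. Values were whole counts. No empty-well background was subtracted here, and no doublet caller was run. Clumps with over 500 UMIs, 200 genes or more and at most 30% mitochondrial UMIs (6004 of mice 1 to 5) were placed in zones by the study's landmark genes without keratins, which left 5883. Single cells (5199 kept, 200 to 7000 UMIs) were assigned to classes by marker sums of at least 10 UMIs, and 20 Paneth-like cells were not tested. Raw counts were summed per mouse and group (at least 5 wells) and tested with edgeR 4.0.16 (quasi-likelihood, TMM, filterByExpr) in R 4.3.3, with Benjamini-Hochberg adjustment over all genes and calls at 0.05. Group design without a mouse term was the main fit. DESeq2 1.42.0, its size factors, no filter, the mouse as a replicate block, each mouse left out and other cut-offs were alternatives. Scaling by library totals, clumps below the secretory limits and leaving out the immune-like sum of mouse 1 were chosen after seeing the data. The script was tested on simulated counts. P-values of the main fit set group differences against the spread between mice within groups, and treat sums of the same mouse as independent.

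Sums with one mouse number share the mouse named in the labels, so the numbers pair them, although mouse 2 of the single cells carries plates of 3 and of 4 months and may be more than 1 animal. The correlations of their deviations from group means were 0.192 to 0.565 over zones, 0.109 to 0.541 over enterocyte zones, 0.148 to 0.336 over clump sizes, -0.048 to 0.54 over classes and 0.0356 to 0.759 over clump contents. The members and lists were chosen with earlier results of these data known. Named genes were the 5 members, the 3 other keratins with the most UMIs per table, up to 3 called genes of each list in each direction in 2 comparisons, and the 3 genes most like each member (Pearson's r, mean of at least 50 CPM). Krt20 and Sfn are landmarks of the study, chosen on earlier data of this tissue.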

Additional observations from a re-analysis of the deposited data

Results flagged for a closer look

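In 3 of the 65 groups of mice tested for a library far from the others, 1 mouse stood apart by the gap to its nearest neighbour relative to the group's range. Chance alone would single out about 1 in 20 groups. Krt7 in crypt clumps was 18.9 CPM in mouse 5, against 70.4 to 87.6 in the other 4 mice. Krt18 in immune-like cells was 199 in mouse 2, against 0 to 13.9 in the others. Krt8 in mid-villus single enterocytes was 787 in mouse 4, against 541 to 579 in the others.

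The clumps of mouse 6, labelled h2n, entered none of the comparisons. Over their 1176464 UMIs the levels were 30.6 CPM for Krt7, 1531 for Krt8, 100.3 for Krt18, 971 for Krt19 and 898 for Krt20. Ordered as crypt, mid-villus and tip, Krt20 was 478, 1492 and 2160.4, and Krt19 was 1319, 326 and 206. Krt18 was 111, 31.4 and 163, with the lowest value in the mid-villus, from 8 UMIs. Krt8 was 1546, 1369.8 and 1741. Krt7 was 35.9, 11.8 and 35.5, from 28, 3 and 5 UMIs, so that the tip was as high as the crypt, unlike the fall in mice 1 to 5. This is 1 mouse and carries no test.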

How the results depend on the processing

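Of 906 values of members under an alternative, 816 kept their direction and side of the threshold, 41 lost a call, 19 gained one and 30 changed sign, none of which was a call in either fit. The cause was not tested. Counts of called genes moved past 1.5 times as follows. In pairs only, they were 2398 for tip against crypt (3690 as reported), 1483 for mid-villus against crypt (2769) and 373 for tip against mid-villus (999). With no filter on low counts, they were 530 for tip against mid-villus, 29 for larger clumps against pairs (0), 2408 for tuft-like (1380), 1579 for goblet-like (991), 3317 for enteroendocrine-like (1518) and 7363 for immune-like (2860) against enterocyte-like cells, and 103 and 71 for crypt clumps with tuft (48) and goblet (44) markers. With the mouse as a replicate block, they were 2038 for tip against mid-villus, 35 for larger clumps, and 82 and 70 for clumps with tuft and goblet markers. Library totals gave 2327 for enteroendocrine-like cells. Clumps of over 1000 UMIs gave 25 with tuft markers, and a 0.5% marker share gave 78 with goblet and 98 with Paneth markers (55). With that share, a single sum (mouse 1, 6 clumps) was left with tuft markers and was assumed to vary like the others, so that its 5 values among the 906 say nothing of stability. Krt7 was -0.31 and Krt8 0.62 there.

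With 1 mouse left out, the counts ranged over 2535 to 4096 (tip against crypt), 1748 to 3140 (mid-villus against crypt), 386 to 1043 (tip against mid-villus), 0 to 1 (larger clumps), 372 to 2009 (tuft-like), 351 to 1358 (goblet-like), 348 to 2159 (enteroendocrine-like) and 1045 to 4383 (immune-like against enterocyte-like). They ranged over 230 to 934 (tuft-like against goblet-like), 94 to 828 (tuft-like against enteroendocrine-like), 1856 to 2269 and 611 to 1157 (enterocytes, tip against crypt and mid-villus), and 21 to 46, 29 to 51 and 45 to 88 (tuft, goblet and Paneth markers).

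Signs changed among the uncalled members as follows (log2 differences). Library totals gave -0.01 for Krt7 in tip against mid-villus, -0.04 for Krt19 in larger clumps, 0.25 for Krt20 in goblet-like, 0.38 for Krt8 in enteroendocrine-like, and 0.78 for Krt7 and 0.56 for Krt18 in immune-like cells, 0.14 for Krt8 with tuft markers and -0.30 for Krt7 with Paneth markers. Pairs only gave 0.09 for Krt18 in tip against crypt. In larger clumps Krt19 was -0.00 with DESeq2's size factors and -0.01 with DESeq2, Krt19 was -0.14 and Krt8 -0.03 over 1000 UMIs, and Krt7 was 0.23 with the replicate block. With tuft markers Krt8 was 0.00 with DESeq2's size factors and 0.03 with DESeq2, and Krt7 was -0.28 with no filter. With 1 mouse left out, ranges crossed 0 for Krt18 (-0.35 to 0.24, tip against crypt), Krt7 (-0.13 to 0.51, tip against mid-villus), Krt19 (-0.08 to 0.17, larger clumps), Krt8 (-0.07 to 0.67, goblet-like), Krt19 (-0.29 to 1.29, enteroendocrine-like), Krt7 (-2.16 to 0.38, immune-like), and Krt7 (-0.01 to 0.34) and Krt8 (-0.52 to 0.12) with tuft markers.

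Scaling also moved the share of called genes that were higher, from 44.4% to 25.8% with library totals for tip against mid-villus, from 39.4% to 72.5% for tuft-like against goblet-like, from 43.0% to 56.4% (63.9% with DESeq2, 58.5% with its size factors) for tuft-like against enteroendocrine-like, and from 85.4% to 47 of 47 genes (97.8% with size factors) for tuft markers. For immune-like cells it went from 56.0% to 44.6% with size factors and 43.0% with DESeq2. Library totals moved the median of all genes from -0.28 to -0.50 in tip against crypt, from -0.16 to -0.40 in tip against mid-villus and from -0.00 to -0.60 with Paneth markers. The replicate block changed 4 calls of members, all gained and given beside those results, and no other. Thinning to 500 UMIs lowered all 25 shares of cells with a UMI. With the 4-month plates left out, the calls of all members tested in single cells were as reported. The sparse classes limit the rest, since 2 mice gave 5 and 6 tuft-like cells.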
